A study of Homo sapiens with 28 samples.

Results

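The genes described here are 10 regulators of the cell cycle whose promoters were read in Fucci human embryonic stem cells, sorted by cell cycle phase. They are the D cyclins CCND1 and CCND2, the cyclins CCNE1, CCNA2 and CCNB1, the kinase CDK1, the CDK inhibitors CDKN1A and CDKN2A, and CDT1 and GMNN, the genes from which the Fucci reporters are built. The genes were chosen by name, with earlier results of these data known, and their peaks by position: every peak within 5 kb of a start site (hg19) was used, with CDKN2A entered at its p16 start and at its ARF start, so that 10 genes gave 11 start sites. These windows held 171 of the 317841 peaks of the 16 ChIP-seq lists.

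Cells of a Fucci human embryonic stem cell line, grown without serum or feeders in a defined medium with Heregulin b1, Activin A, LongR3 IGF-1 and FGF2, were sorted by reporter fluorescence into 4 fractions. The labels name them DN for early G1, KO2 for late G1, AzL for S phase and AzH for G2/M. All groups share the reporters and the medium, no treatment was given, and each mark was read in 1 library per fraction, so there was no replicate error and no test between fractions was possible. The marks were H3K4me3, found at active and poised promoters, H3K27me3, laid down by Polycomb, H3K27ac, found at active promoters and enhancers, and H3K4me1, found at enhancers. Stem cell marker genes were not checked, because no hg19 annotation was used here.

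Cyclins are the regulatory partners of the cyclin-dependent kinases. D cyclins act with CDK4 and CDK6 in G1, cyclin E acts at the G1 to S transition, cyclin A from S phase into G2, and cyclin B with CDK1 drives mitosis. CDKN1A encodes p21, and CDKN2A encodes both p16, an inhibitor of CDK4 and CDK6, and ARF, which stabilises p53. CDT1 licenses replication origins in G1 and geminin, the product of GMNN, inhibits CDT1 from S phase until mitosis. The Fucci reporters fuse fluorescent proteins to fragments of CDT1 and geminin, whose proteins are degraded at opposite times in the cycle. Embryonic stem cells are known for a short G1.

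Each peak has a width and a deposited height (column 6 of the lists, scale not given in the sources used here). Because heights of different libraries need not share a scale, a peak is mainly given by its percentile, the share of peaks of its own list that are lower. Where 4 values stand together, they follow the cycle, with both G1 fractions first (early, then late), S next and G2/M last. The lists held between 1878 and 32521 peaks, and the number of reads behind them is unknown here. The median height at H3K4me3 regions listed in all 4 fractions was 134, 65.5, 76.9 and 75.6, so early G1 heights ran higher as deposited. Relative height is a height divided by this median. The lists differ in length, so percentiles set side by side describe each list and do not measure a change.

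H3K4me3 was listed at nearly every start. It was present at 10, 11, 10 and 11 of the 11 starts, and at 9 of 11 in all 4 fractions. Among windows of the same size centred on the 32799 merged H3K4me3 regions, 74.0% had a peak in every fraction. The exceptions were CDKN1A, without a listed H3K4me3 peak in early G1, and the p16 start of CDKN2A, without one in S. The median percentile of the tallest peak was 90.9, 86.9, 86.6 and 85.6. The median height over H3K4me3 regions listed in all 4 fractions stood at percentile 67.6, 67.9, 68.9 and 71.0. Those values come from the regions themselves and not from windows around them. The highest was CCNA2 in early G1, at 98.8, and the lowest was the p16 start in G2/M.

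**Figure D1:**
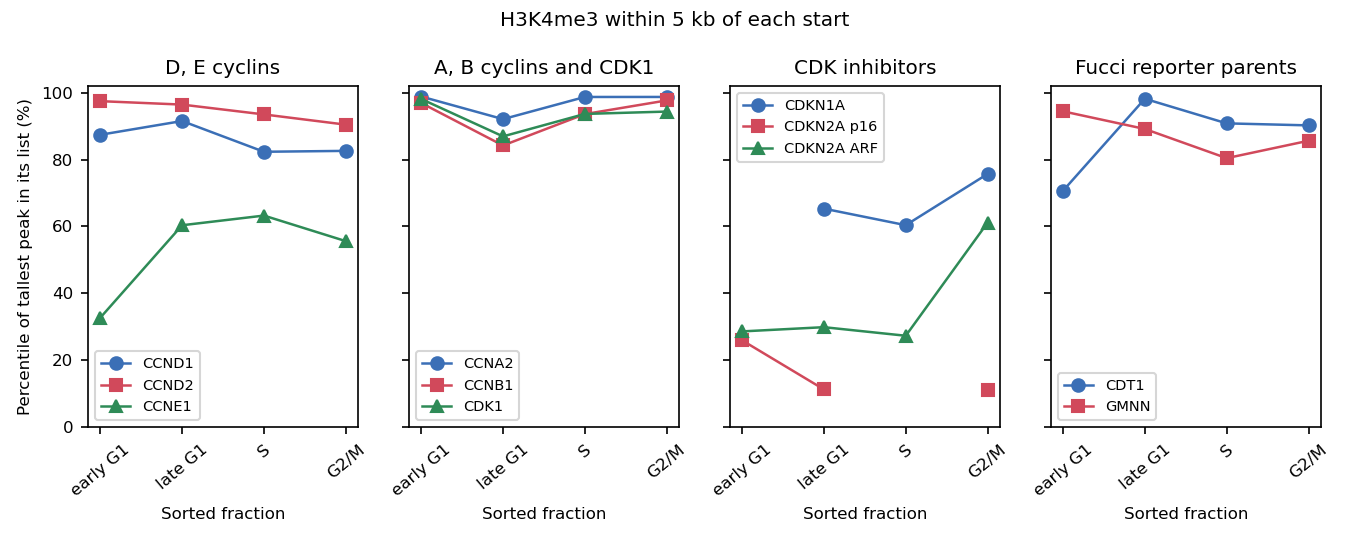
Percentile (%) of the tallest H3K4me3 peak within 5 kb of each start among all peaks of its list with a height, in the 4 sorted fractions, 1 library per point; a missing point is a fraction with no listed peak. CCNA2, CCNB1 and CDK1 have their lowest point in late G1, where CDT1 has its highest, and the p16 start of CDKN2A has the lowest points.

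CCNA2, CCNB1 and CDK1, the cyclins and the kinase of S phase and mitosis, had tall H3K4me3 peaks, from percentile 84.2 to 98.8, and by height all 3 stood lowest in late G1. These 3 genes are set together, and their promoters shown, because they shared this low point by height. The groups planned by role placed CCNA2 with CCNE1, which stood lowest in early G1. The ratios of the 3 genes given below rest on the same heights and are no separate support for the pattern. The sequences are the bases just before the RefSeq start (build GRCh38.p14, gene strand, 5′ to 3′), with capitals marking matches to CCAAT, to the CHR letters TTTGAA or TTCGAA, or to the E2F letters TTTCGCGC, TTTGGCGC or TTTCCCGC on either strand. In the stretches of 30 bases, capitals mark only the match named on that line, since neighbouring matches overlap the same stretch. CCNA2 lies at chr4:121823884-121824133 on the minus strand and CCNB1 at chr5:69166900-69167149 on the plus strand. CDK1 has 2 listed starts, and 3 stretches of 30 bases before the second are shown, at chr10:60778339-60778368, chr10:60778387-60778416 and chr10:60778397-60778426 on the plus strand. Positions were not converted between builds, so which listed start matches the hg19 start used for the peaks was not determined. The stretches may therefore lie after that start, and the same holds for GMNN below.
CCNA2: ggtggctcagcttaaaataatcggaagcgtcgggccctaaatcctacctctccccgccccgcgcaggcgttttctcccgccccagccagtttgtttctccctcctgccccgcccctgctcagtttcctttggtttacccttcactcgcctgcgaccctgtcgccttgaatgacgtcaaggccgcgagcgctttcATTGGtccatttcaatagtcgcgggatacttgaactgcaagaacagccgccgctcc
CCNB1: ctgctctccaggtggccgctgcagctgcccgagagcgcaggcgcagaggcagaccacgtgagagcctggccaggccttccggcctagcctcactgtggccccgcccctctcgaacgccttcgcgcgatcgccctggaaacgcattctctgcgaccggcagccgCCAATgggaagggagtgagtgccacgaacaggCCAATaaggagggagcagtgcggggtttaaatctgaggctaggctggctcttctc
CDK1 E2F letters: tttcctctttcTTTCGCGCtctagccaccc
CDK1 CCAAT: tagctgggctctgATTGGctgctttgaaag
CDK1 CHR: ctgattggctgcTTTGAAagtctacgggct

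The motifs were counted in 11 RefSeq windows of 250 bases, which belong to 8 of the 10 genes, and the share of all 35116 RefSeq windows of this length that hold each motif is given beside the count. CCAAT, known as the binding site of NF-Y, was in 5 of the 11 windows, against 32.0%. It occurred 1 time before CCNA2 and before the first start of CDK1, and 2 times before CCNB1, the second start of CDK1 and the second start of GMNN. The CHR letters, a repressive element known from genes of G2 and mitosis, were in 2 of 11 windows, against 14.3%, both of them CDK1 (1 time before its first start and 2 times before its second). The E2F letters were in 3 of 11, against 2.32%: the second start of CDK1, CDT1 and the second start of GMNN. The first start of GMNN, CCNE1, CDKN1A and both CDKN2A starts had no match to the letters of the 3 motifs. The windows of the CDK1 starts overlap, so they are not separate promoters. These matches are letters in a window and not measured binding. Only the letters given were searched, so a window without a match, such as that of CCNA2 for CHR, may hold the element in other letters.

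The CCNA2 start (chromosome 4, position 122745088, minus strand) carried an H3K4me3 peak with heights of 486, 157, 311 and 368, at percentiles 98.8, 92.1, 98.7 and 98.7. Its width was 1850, 1050, 1625 and 1575 bp. Late G1 was thus the lowest and the narrowest. In late G1 a further peak of 100 bp was listed 1.19 to 1.29 kb into the gene. The peak lay over the start and the first part of the gene, from -0.34 to 1.51 kb in early G1. BBS7 neighbours this start in RefSeq.

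CCNB1 (chromosome 5, position 68462837) had heights of 420, 112, 204 and 298 and percentiles of 96.9, 84.2, 93.6 and 97.7. The peak was 1525, 1150, 1450 and 1500 bp wide. Early G1 and G2/M stood high, S in between and late G1 lowest.

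CDK1 (chromosome 10, position 62538089) had heights of 455, 124, 204 and 211, at percentiles 98.1, 86.9, 93.6 and 94.4. Its width changed most of these 3, with 2525, 875, 2175 and 2200 bp. In late G1 the peak ended 1.01 kb into the gene, against 2.41, 2.16 and 2.21 kb in the other fractions.

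Set against the library's own median, the relative H3K4me3 height of these genes went down from early to late G1 and up again in S. The log2 ratio of late over early G1 was -0.60 for CCNA2, -0.88 for CCNB1 and -0.84 for CDK1, and 20.1%, 9.03% and 10.3% of 14664 regions were lower still. The ratio of S over late G1 was 0.76, 0.64 and 0.49, higher than 96.9%, 94.6% and 90.0% of the regions. None of these ratios reached 2-fold. From early to late G1 the maximum moved by 317 bp at CCNA2, 36 bp at CCNB1 and 223 bp at CDK1. From late G1 to S it moved by 7, 88 and 56 bp, so the heights come from different places within the peak. The genes parted from G2/M to early G1, where the ratio was -0.42 for CCNA2 and -0.33 for CCNB1 but 0.28 for CDK1. As deposited, their heights were also lower in late than in early G1 and higher in S than in late G1. By percentile of the lists' other measure, the deposited score, late G1 was the lowest fraction at CCNB1 alone. The scores themselves, taken as stronger when more negative, were weakest in late G1 at CCNA2, CCNB1 and CDK1 alike. They were -10.7, -5.48 and -7.00 there, against -11.5, -9.08 and -7.33 in G2/M, the next weakest. Like heights, scores of different libraries need not share a scale. Score percentiles were 95.3, 98.0, 98.9 and 97.9 for CCNA2, 97.2, 85.4, 96.9 and 92.7 for CCNB1, and 92.1, 89.7, 91.8 and 87.3 for CDK1.

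H3K27ac near these starts was sparse. CCNB1 carried it 0.16 to 0.54 kb into the gene in early G1 (height 56.7, percentile 96.9), with a lower peak in late G1 (23.9, percentile 55.7), none in S and 3 peaks in G2/M, the tallest at percentile 89.2. CCNA2 had a peak of 175 bp before the start in early G1 (percentile 35.7) and another of 200 bp inside the gene in late G1 (percentile 16.3). CDK1 had none in any fraction. No H3K27me3 peak lay within 5 kb of these 3 starts.

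CDT1 and GMNN, the parents of the reporters, took different courses in H3K4me3. CDT1 (chromosome 16, position 88870186) had heights of 152, 259, 178 and 164, at percentiles 70.7, 98.2, 90.8 and 90.2. Late G1 was the tallest of the 4, both as deposited and relative to the library. The maximum lay 483, 833, 462 and 835 bp into the gene, so heights of successive fractions come from different places within the peak. The log2 ratio of relative height was 1.80 from early to late G1, higher than 96.8% of regions, and -0.77 from late G1 to S, where 5.04% of regions were lower. By score, CDT1 stood at percentiles 70.7, 93.1, 84.4 and 97.2, so that early G1 was again lowest but G2/M was highest. The widest CDT1 peak measured 1875, 2475, 2700 and 1700 bp.

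GMNN (chromosome 6, position 24775242) had heights of 370, 137, 117 and 133 and percentiles of 94.4, 89.1, 80.4 and 85.6. S was the lowest by percentile, though the tallest peak was widest there, at 1500, 1225, 1875 and 1225 bp. The log2 ratio of relative height was -0.40 from early to late G1, -0.45 from late G1 to S, 0.21 from S to G2/M and 0.65 from G2/M to early G1. GMNN had H3K27ac in early G1 alone, with the taller of 2 peaks at the start itself, from -0.04 to 0.23 kb (height 37.3, percentile 82.7). CDT1 had no H3K27ac peak.

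The promoters of this pair are given for comparison with the mitotic genes. The CDT1 sequence is the 250 bases before its start, at chr16:88803539-88803788 on the plus strand of GRCh38.p14, and the 2 GMNN stretches lie before the second listed start, at chr6:24775305-24775334 and chr6:24775322-24775351 on the plus strand, with capitals as above.
CDT1: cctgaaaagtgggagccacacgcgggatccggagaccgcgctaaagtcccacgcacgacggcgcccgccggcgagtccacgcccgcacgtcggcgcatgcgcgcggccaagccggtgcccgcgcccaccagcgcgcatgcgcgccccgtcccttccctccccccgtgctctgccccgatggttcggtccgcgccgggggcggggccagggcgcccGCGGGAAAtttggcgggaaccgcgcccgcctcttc
GMNN CCAAT: gagggactgccccATTGGctgggtcggttt
GMNN E2F letters: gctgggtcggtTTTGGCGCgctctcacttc

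The CDT1 window was rich in CpG, with 42 CpG in 250 bases and an observed to expected ratio of 1.17, above 98.7% of the RefSeq windows. The CCNA2 and CCNB1 windows held 20 and 19.

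CDT1 also carried H3K27me3 in all 4 fractions, in short blocks inside the H3K4me3 peak. The tallest block lay 0.59 to 1.01 kb into the gene in both G1 fractions, 0.54 to 1.04 kb in S and 0.56 to 1.01 kb in G2/M, with heights of 90.7, 60.9, 108 and 51.7 at percentiles 86.4, 86.7, 95.7 and 88.3. A lower peak ended 0.39 to 0.44 kb from the start in each fraction, with its maximum 239 to 245 bp into the gene. S stood highest. The fraction with the tallest CDT1 H3K4me3 peak, late G1, did not have the tallest H3K27me3 peak. GMNN had no H3K27me3 peak in any fraction, also when the window was extended to 20 kb past the start, a distance chosen after the values were seen. The cells hold integrated reporters with fragments of CDT1 and geminin, and reads from these copies and from the genes' own exons cannot be told apart in the lists. The same limit holds for the H3K4me3 heights of both genes. In late G1 both marks of CDT1 had their maximum at 833 bp.

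The D cyclins combined tall H3K4me3 over the start with H3K27me3 mainly before it. CCND1 (chromosome 11, position 69455873) had H3K4me3 across the start to 1802, 2177, 2202 and 1852 bp into the gene, with heights of 281, 152, 126 and 117 at percentiles 87.4, 91.5, 82.3 and 82.6. Both G1 fractions stood above S and G2/M by percentile. Its main H3K27me3 block was separate, from -4.35 to -2.70 kb in early G1 with the same outer edge in late G1 and G2/M and an edge at -4.25 kb in S, with widths of 1650, 1725, 1275 and 1500 bp. The heights of that block were 167, 116, 52.9 and 72.7, at percentiles 94.9, 94.7, 86.9 and 92.3, lowest in S. In late G1, 3 short H3K27me3 peaks (75 to 300 bp) were also listed inside the gene, none above percentile 37.2.

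CCND2 (chromosome 12, position 4382902) had the widest H3K4me3 of these genes, with summed widths of 5600, 5200, 4800 and 3525 bp. The peak over its start had heights of 434, 210, 203 and 167 and percentiles of 97.5, 96.4, 93.5 and 90.4, highest in early G1 and lowest in G2/M. A chain of 3 lower H3K4me3 peaks ran from -5.05 to -1.83 kb in early G1. The antisense gene CCND2-AS1 neighbours this start in RefSeq, and the lists carry no strand, so the upstream peaks cannot be given to either gene.

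CCND2 was also the D cyclin with H3K27me3 over the start. Summed H3K27me3 width was 4650, 7125, 3425 and 6125 bp. In late G1 a peak of 5300 bp ran from -4.38 to 0.92 kb and so covered the start, while in early G1 the same stretch was split into peaks that ended at -0.28 kb and began again at 0.32 kb. In G2/M a peak from -1.70 to 0.12 kb covered it. In S none did, though a peak of 225 bp ended 2 bp before the start. The tallest H3K27me3 peak stood at percentile 89.2, 95.2, 89.0 and 90.5, highest in late G1.

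H3K27ac was widest at both D cyclins in early G1. CCND1 had 7 peaks there, 2350 bp in sum, of which the tallest lay from -2.65 to -2.22 kb (height 52.5, percentile 95.4), just past the edge of the H3K27me3 block. In late G1, S and G2/M the sum was 275, 0 and 75 bp. CCND2 had 1900, 400, 0 and 675 bp, mostly inside the gene. In early G1, 2 of the CCND1 H3K27ac peaks lay within the H3K27me3 block. Counted as H3K27me3 peaks, 3 of the 15 in the early G1 windows overlapped H3K27ac, at CCND1 and CCND2. The CCND1 block was 1650 bp wide, against a median of 350 bp over the early G1 H3K27me3 list. Over the whole lists, 1.25% of early G1 H3K27me3 peaks overlapped an H3K27ac peak (exact Clopper-Pearson 95% interval 1.12 to 1.40, counting error only).

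CCNE1 (chromosome 19, position 30302901), the cyclin of the G1 to S transition, had low H3K4me3 on either side of its start. In early G1 the peaks ran from -0.88 to -0.48 kb and from 0.60 to 0.95 kb, leaving the start uncovered, and a peak of 275 bp covered it in late G1 alone. The tallest peak had heights of 35.3, 50.8, 61.4 and 41.9 at percentiles 32.7, 60.4, 63.2 and 55.6. Early G1 was lowest and narrowest, with a summed width of 750 bp against 1600, 2000 and 925 bp. The tallest peak was the one before the start in early G1 and the one inside the gene in the other fractions. For the inner peak alone the height was 31.1 in early G1, and CCNE1 had neither H3K27me3 nor H3K27ac in any fraction.

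The CDK inhibitors had the tallest H3K27me3 peaks by percentile in all 4 fractions, beside short or low H3K4me3. CDKN2A (chromosome 9, minus strand, positions 21974826 for p16 and 21994490 for ARF) lay in very broad H3K27me3 in all 4 fractions. The peak over the p16 start began at 21962926 and ended at 21980750 in early G1, and in late G1 these edges were 21963101 and 21980850. In S it was shorter, between 21966676 and 21978175, and in G2/M it spanned 21963451 to 21978275, each with a second peak beyond it. Its heights were 390, 205, 150 and 185 at percentiles 99.9, 98.4, 97.5 and 98.5. The maximum lay between 5468 and 5595 bp into the gene from the p16 start.

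At the ARF start a separate peak covered the start in every fraction, with widths of 11750, 11225, 9000 and 5000 bp. In early G1 its edges were 21986851 and 21998600. In G2/M the stretch was split, with a second peak of 4400 bp beginning 1.86 kb into the gene. Percentiles of the tallest peak were 96.9, 97.9, 98.9 and 98.1. Summed H3K27me3 width was 17825, 17750, 13100 and 17325 bp at p16 and 15175, 11950, 9400 and 9875 bp at ARF, so S was the narrowest at both. The S list was also the shortest of the H3K27me3 lists, with 19989 peaks against 23755, 31682 and 26480. In windows of the same size around H3K4me3 regions that had H3K27me3, the median sum was 1900, 2050, 1275 and 1650 bp, again smallest in S.

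H3K4me3 within these CDKN2A domains was short and low. At p16 it was 300, 100, 0 and 175 bp wide, just before the start, with heights of 29.3, 17.2 and 15.1 in early G1, late G1 and G2/M, where the peak stood at percentile 25.9, 11.3 and below 11.3. At ARF the sum was 1050, 225, 725 and 725 bp and the tallest peak stood at percentile 28.6, 29.9, 27.3 and 61.1. G2/M stood apart at ARF, with a height of 51.7 and a width of 500 bp across the start, from -0.28 to 0.21 kb. The tallest peak in the other fractions was 31.4, 22.6 and 20.4, against a 5th percentile of 18.8, 15.98 and 15.2 in the same lists. CDKN2B-AS1 and LOC124902130 neighbour the ARF start in RefSeq. There the 250 bases before the upstream CDKN2A start lie at 21995325 to 21995574 (GRCh38.p14), and positions were not converted between builds. Whether the G2/M peak lies across the start therefore depends on the start used. Neither start had H3K27ac, and ARF in G2/M had the only H3K4me1 peak of all windows, 150 bp wide at percentile 38.8.

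CDKN1A (chromosome 6, position 36646450) carried H3K27me3 inside the gene beginning 26 to 51 bp after the start, with widths of 2550, 2875, 2550 and 2600 bp. In early G1, 3 short peaks were also listed before the start, between -1549 and -500 bp, the highest at percentile 33.3, and in late G1 a peak of 125 bp lay 4.70 kb into the gene. Its heights were 216, 794, 496 and 457 at percentiles 97.2, 99.9, 99.8 and 99.9. Early G1 was the lowest by height and percentile, but by the deposited score the order was different, at percentiles 99.6, 99.4, 98.7 and 99.1. The far edge lay at 2.58, 2.92, 2.58 and 2.62 kb.

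H3K4me3 at CDKN1A was not listed in early G1 and had heights of 59.7, 54.6 and 90.1 in late G1, S and G2/M, at percentiles 65.3, 60.4 and 75.7. The tallest peak did not cover the start: it lay from 1.05 to 1.82, 1.25 to 1.75 and 1.38 to 1.82 kb into the gene. Its maximum was 1562, 1590 and 1630 bp from the start, and the H3K27me3 maximum of the same fractions was at 1620, 1614 and 1621 bp. In early G1, with no H3K4me3 peak, the H3K27me3 maximum lay at 1907 bp. The short G2/M H3K27ac peak (125 bp, percentile 41.0) had its maximum at 1614 bp, so in G2/M all 3 marks were listed at the same place. Over the whole G2/M list, 0.623% of H3K27me3 peaks overlapped H3K27ac, and in the windows 3 of 17 did, at CDKN1A and CCND2. The CDKN1A peak was 2600 bp wide and those at CCND2 were 75 and 800 bp, against a list median of 275 bp. No share matched for width or place was computed. In late G1, 3 of 15 overlapped, against 1.24% of the list, and in S 0 of 13, against 0.495%. Whether this place in CDKN1A gives peaks whatever the antibody was not tested. PANDAR, DINOL and the pseudogene LAP3P2 neighbour CDKN1A in RefSeq.

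**Figure D2:**
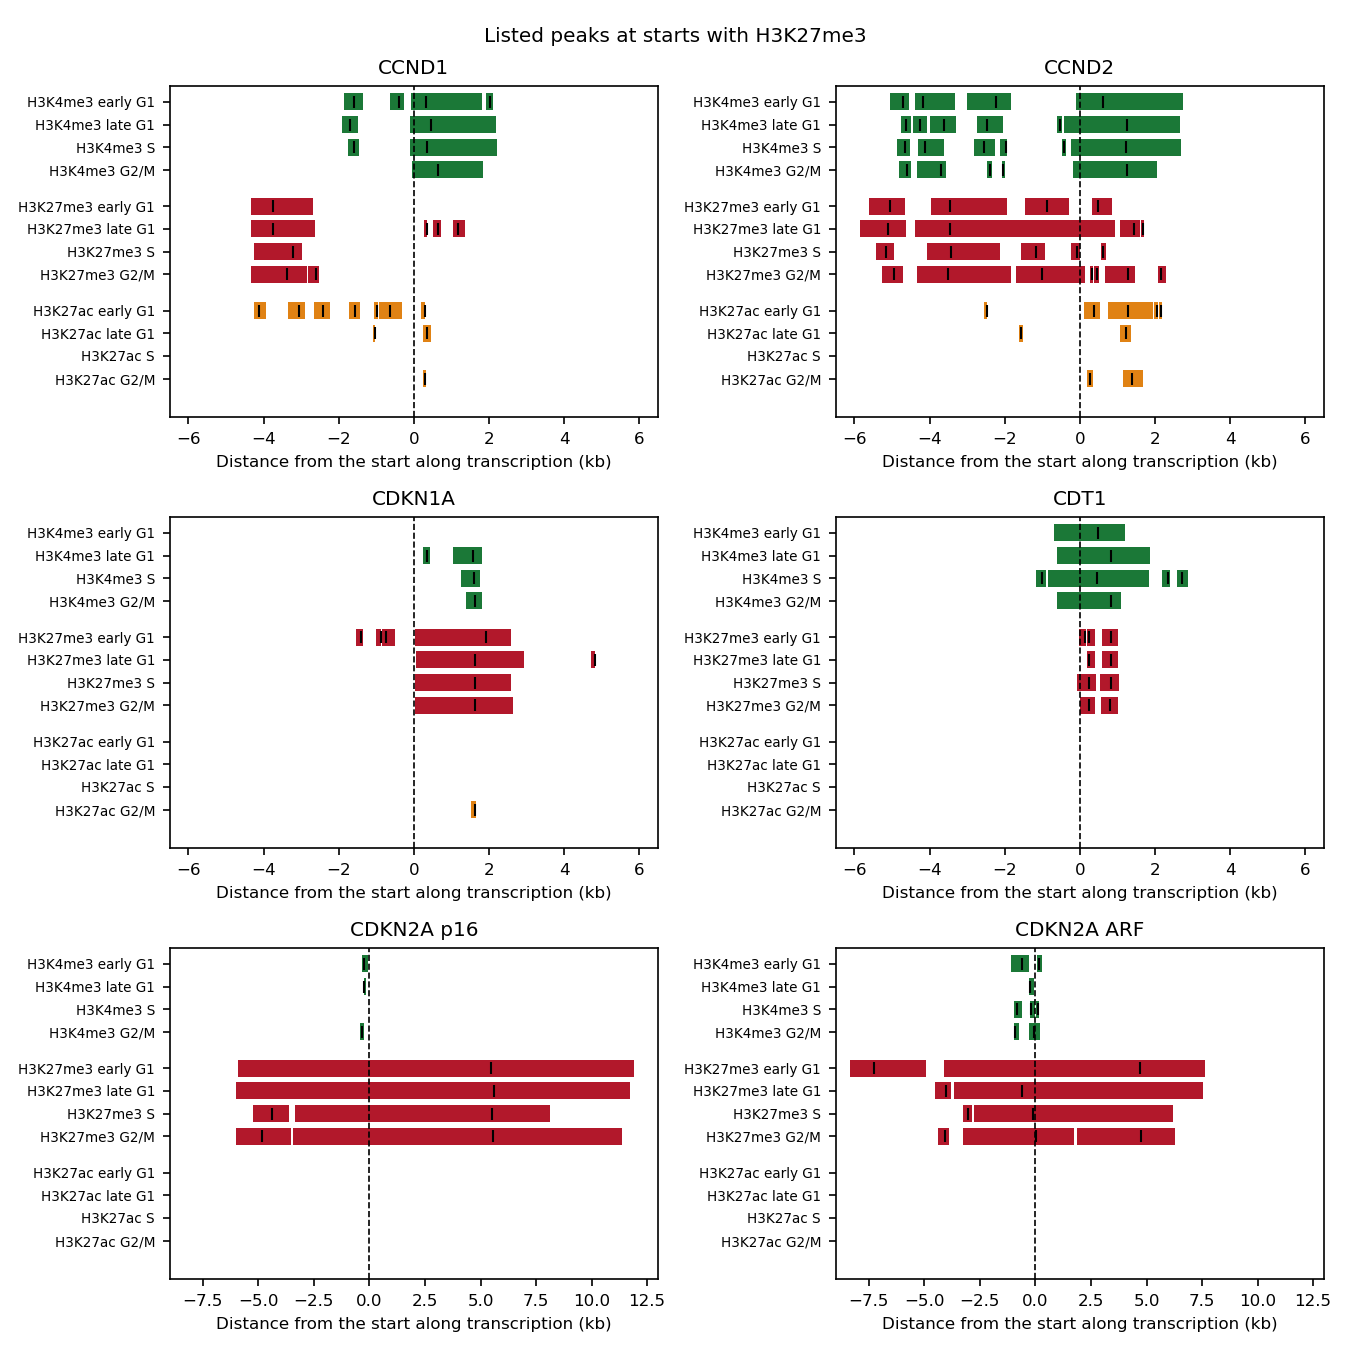
Peaks listed for H3K4me3 (green), H3K27me3 (red) and H3K27ac (orange) at the 6 starts with H3K27me3, by fraction; the x axis is the distance from the start along transcription (kb), bars are whole peaks that touch the 5 kb window and black ticks their maxima. The tallest H3K27me3 peak lies before the start at CCND1, across it at both CDKN2A starts and after it at CDKN1A, with short further peaks on the other side at CCND1 in late G1 and at CDKN1A in early G1.

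In count, H3K27me3 was present at 6 of 11 starts in each of the 4 fractions, always the 5 genes CCND1, CCND2, CDKN1A, CDKN2A and CDT1. Among the 15661 windows centred on H3K4me3 regions listed in all fractions, 25.3%, 25.2%, 20.0% and 21.8% had such a peak. CDKN1A and the p16 start, where H3K4me3 was not listed in every fraction, do not meet that condition but are counted among the 6. Both CDKN2A starts are among the 6 as well. The tallest H3K27me3 peak of the marked starts had a median percentile of 95.9, 96.6, 96.6 and 95.2. No matching percentile over other windows was computed.

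**Figure D3:**
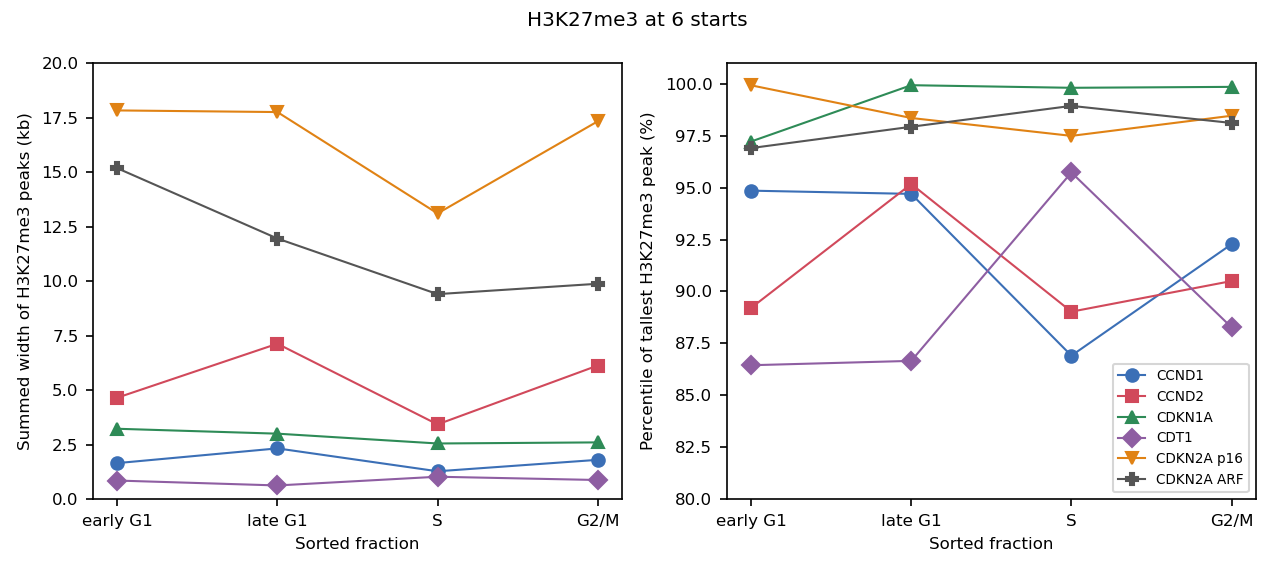
Summed width (kb, left) and percentile of the tallest peak (%, right, axis from 80) of H3K27me3 at the 6 starts that carry it, by fraction, 1 library per point. CDKN2A has by far the widest domains, smallest in S at 13100 bp for p16 and 9400 bp for ARF. Percentiles come from lists of different length, and CDKN1A, at 97.2 in early G1 and 99.9 in late G1 by height, stands at 99.6 and 99.4 by score.

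H3K27ac was present at 5, 4, 0 and 4 of 11 starts, against 53.2%, 42.1%, 14.3% and 27.1% of the same windows. These counts depend on the list: with lists of equal length they were 3, 0, 0 and 3, and with peaks of at least 500 bp alone 2, 0, 0 and 1. The shares of windows were not recomputed under these settings. Over the whole lists the median H3K27ac peak was 250, 225, 175 and 200 bp wide, so short peaks are not particular to these starts. The S list was also the shortest of the H3K27ac lists, with 10268 peaks against 30168, 32521 and 19525. H3K4me1 was present at 0, 0, 0 and 1 of 11 starts, against 2.13%, 4.20%, 6.14% and 4.84%.

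Across the starts as a whole, H3K4me3 changed by at least 2-fold in relative height at few places. From early to late G1, 2 of 10 starts listed in both fractions were at least 2-fold higher, CDT1 (log2 ratio 1.80) and CCNE1 (1.56), against 15.1% of regions, and 0 were 2-fold lower, against 5.80%. A share of 2 in 10 is near that background. From late G1 to S no start passed 2-fold in either direction, against 0.859% of regions higher and 2.18% lower. From S to G2/M, ARF was higher (1.37) and none lower, against 4.44% and 1.30%. From G2/M to early G1, none was higher and CCNE1 (-1.07) and ARF (-1.54) were lower, against 5.78% and 14.3%. The tallest ARF peak lay at -849 bp in S, -55 bp in G2/M and -585 bp in early G1. The ARF ratios given here, like those of CCNE1, thus set different peaks against each other. The median log2 ratio of the starts was 0.07, -0.32, 0.14 and -0.10 in these 4 steps, and that of all regions was 0.00, -0.03, -0.03 and 0.05. Direction depended on scaling: as deposited, CDT1 and CCNE1 alone among the 10 starts had taller H3K4me3 in late than in early G1.

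**Figure D4:**
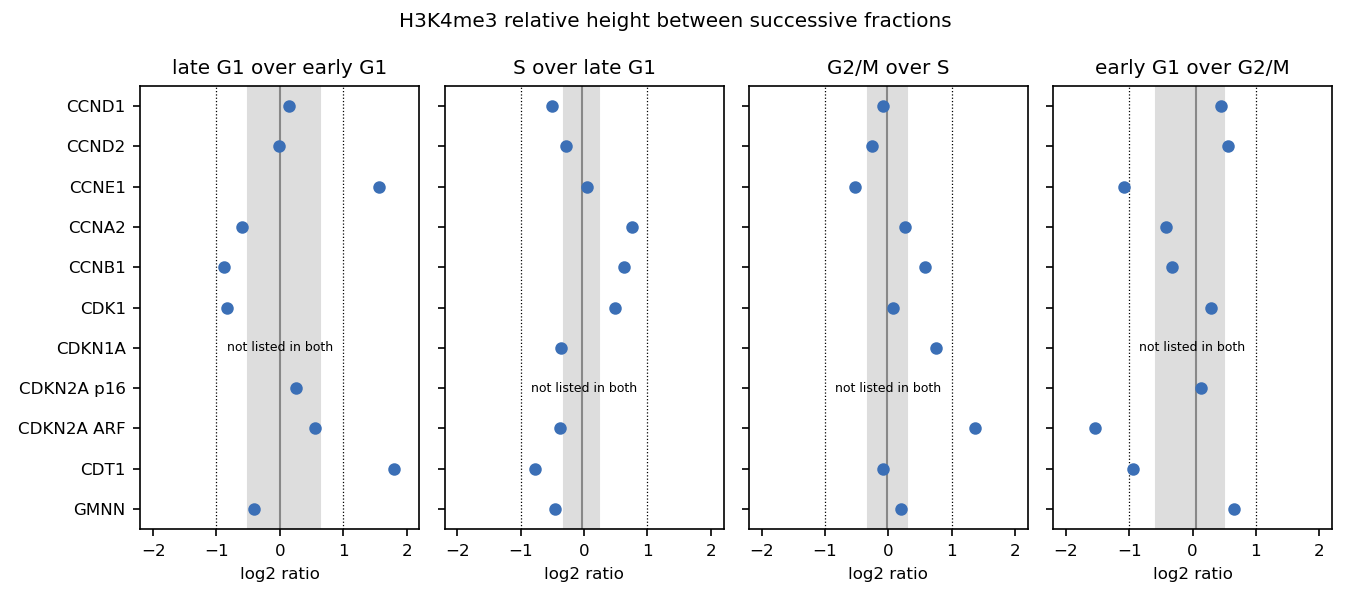
The log2 ratio of relative H3K4me3 height between successive fractions for each start (points, 1 library per fraction); grey bands and lines are the quartiles and median over 14664 regions listed in all fractions, dotted lines mark 2-fold. CCNA2, CCNB1 and CDK1 lie left of the band from early to late G1 and right of it from late G1 to S, and CDT1 lies on the opposite sides.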

How the data were processed

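Of the 28 samples, the 16 ChIP-seq libraries were used; the 4 inputs and the 8 4C libraries were not analysed here. The labels gave the groups, each mark having 1 library in a fraction. Per the submitters' processing notes, which assign no roles, Bowtie 0.12.7 was among the tools and hg19 and mm9 among the builds. The way peaks were called, with or without inputs, was not given in the sources used here. Each deposited list gives a signal value per peak (column 6, read as the maximum height) and a score (column 7, negative in all peaks), both the authors' values; that reading comes from the values. Positions were read as hg19. Peaks on the chromosomes coded 22 to 24 have a height of 0 and were left out of percentiles; none of the genes lies there.

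Start sites were those of the member rule, and strands came from the RefSeq promoter table, or for CCND1 and CCND2 from textbook knowledge. A peak counted when it came within 5 kb of a start. All 10 genes are named, by a rule set with the members. The genes, lists and windows were chosen with earlier results of these data known. Other cell cycle genes and stem cell markers were listed but not located, as no hg19 annotation was used. H3K4me3 peaks of the 4 fractions were merged when they overlapped by 1 bp. RefSeq promoters (GRCh38.p14) matched 8 of the 10 genes, with 11 starts. Neighbouring genes were taken from RefSeq by name. Computations used Python 3.11.15, numpy 2.4.6, pandas 2.3.3, scipy 1.17.1 and matplotlib 3.10.9. The merging and ratios were tested on simulated data. No p-value was computed. Alternatives were windows of 1 and 2.5 kb, equal list lengths, peaks of at least 500 bp, scores in place of heights, the nearest or the widest peak, and heights as deposited.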

Additional observations from a re-analysis of the deposited data

How the results depend on the processing

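The counts of starts with H3K4me3 or H3K27me3 stayed within 1.5 times under all 4 alternatives run on them. For H3K27ac, equal list lengths gave 3 starts in early G1 and 0 in late G1, and peaks of at least 500 bp gave 2, 0 and 1 in early G1, late G1 and G2/M. The H3K4me1 start in G2/M was lost (0) with a 1 kb window, equal lists or 500 bp peaks. With scores in place of heights, median percentiles over the 4 fractions, from early G1 to G2/M, were 91.9, 85.4, 84.7 and 83.2 for H3K4me3 and 98.4, 98.0, 97.4 and 96.3 for H3K27me3. For H3K27ac they were 83.3, 44.1 and 61.2 in early G1, late G1 and G2/M, and for H3K4me1 in G2/M 29.6. With the nearest peak, H3K27me3 was 92.2 in S and 89.3 in G2/M, and H3K27ac was 62.2 in early G1 and 32.9 in G2/M. With the widest peak alone, median widths were 1687.5, 1050 and 1775 bp for H3K4me3 in early G1, late G1 and S. They were 2275, 4087.5, 2250 and 2550 bp for H3K27me3 and 375, 212.5 and 200 bp for H3K27ac in early G1, late G1 and G2/M. Within 1 kb of the start, summed widths were 1687.5, 2000 and 1537.5 bp for H3K4me3 in early G1, S and G2/M. They were 3025, 4087.5, 2550 and 2825 bp for H3K27me3, and 200 bp in late G1 and 150 bp in G2/M for H3K27ac. With heights as deposited, the median log2 ratio of H3K4me3 reversed to -0.97 from early to late G1 and to 0.73 from G2/M to early G1, by construction, since the median deposited height over regions was highest in early G1. It was -0.090 from late G1 to S and 0.11 from S to G2/M, and with a 1 kb window -0.28 and 0.068. No replicate could be left out and no paired analysis was possible because each mark had 1 library per fraction. Depth is unknown, so a peak that is not listed may lie below the caller's limit.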
